A study of Rattus norvegicus with 11 samples.

Results

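The chemokine genes Cxcl9, Cxcl10, Cxcl11, Cxcl12, Ccl2, Ccl5 and Cx3cl1 were followed by name through 11 RNA sequencing libraries of rat brain. Of these 7 genes, 6 are listed in the files, among 23093 features that all libraries share, and no feature carries the name Cxcl12, so that gene was not analysed here. The 6 genes were selected on their values in these data, chosen by name with the comparison of homozygous and wild-type libraries in view, so that comparison is given for them as a description, with no test. Their comparison of homozygous and heterozygous libraries was tested. Earlier results of these data were known when the genes were chosen, so the p-values of that comparison may not be independent of the choice.

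The libraries are labelled as cerebellar cortex of 10-week Sprague-Dawley rats. There are 6 from rats homozygous for CSB R571X (CSBR571X/R571X), a stop mutation in CSB, the DNA repair and transcription protein that Ercc6 encodes. There are 2 titled heterozygous, whose genotype label reads CSBR571X/-, and 3 from wild-type rats. The labels name no treatment and no other allele. They do not state that the libraries are from different animals, and a p-value here can only measure how far libraries spread, part of which may be technical.

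The authors normalized the libraries in 2 sets. Set 1 holds homozygous replicates 1 to 3 and the 2 heterozygous libraries, and set 2 holds homozygous replicates 4 to 6 and the 3 wild-type libraries. Values were therefore compared within a set. A normalized read is a read divided by the size factor of its library. Libraries held 5406669 to 8723823 reads on features. Ercc6 itself averaged 109 ± 20.3 normalized reads in homozygous libraries 4 to 6 and 353 ± 56.0 in wild-type libraries (SD, n = 3 each), a log2 difference of -1.69 with a limma adjusted p of 0.0171. In set 1 it averaged 156 ± 2.61 in the homozygous libraries and 203 ± 35.2 in the heterozygous libraries (SD, n = 3 and 2), a log2 difference of -0.37 with a limma adjusted p of 0.576. Among cerebellar markers, Pvalb had 0 to 5 reads in each library and Calb1, which forebrain also expresses, 441 to 4664. Neurod1, another gene of the cerebellar list, had 29 to 439 reads. The forebrain genes Neurod6 and Emx1 had 271 to 2391 and 243 to 597 reads, which goes against the tissue label. Values were also low for some genes that brain expresses. The neuronal gene Rbfox3 had 0 to 9 reads, while Nefl, another neuronal gene, had 5964 to 24146. On the same strand another listed feature overlaps Rbfox3, and likewise Pvalb, Neurod1 and Emx1. The cause of the low values was not tested, and a low value is not proof of low RNA.

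Chemokines are small secreted proteins that draw leukocytes along a gradient by acting on G-protein-coupled receptors. Cxcl9, Cxcl10 and Cxcl11 are ligands of the receptor Cxcr3 on activated T and NK cells, and interferons induce them. Ccl2 draws monocytes through Ccr2, Ccl5 draws T cells and monocytes, Cx3cl1 (fractalkine) is a membrane-bound neuronal ligand of microglial Cx3cr1, and Cxcl12 acts on Cxcr4 and Ackr3. In the brain, astrocytes, microglia and endothelial cells are known sources of Cxcl10 in inflammation.

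The Cxcr3 ligand genes lie side by side on the plus strand of chromosome 14 in rn6. Cxcl11 spans bases 17195014 to 17198291, Cxcl10 bases 17210733 to 17212930 and Cxcl9 bases 17228856 to 17234712. Ccl2 lies on chromosome 10 at 69412017 to 69413870 and Ccl5 on the minus strand of the same chromosome at 70739800 to 70744315. Cx3cl1 lies on the minus strand of chromosome 19 at 10644244 to 10653800. All 6 are annotated as protein coding, and no other annotated feature overlaps any of them on either strand.

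The 250 bases before the start of Cxcl10 and of Cxcl11 are shown because these genes were higher in every homozygous library than in every other library when all were scaled together. They come from RefSeq, build GRCr8, whose promoter table holds 5 of the 7 genes. Both strands were searched for the interferon-stimulated response element core (GAAA, any 2 bases, GAAA), the interferon-gamma-activated site core TTCNNNGAA and the NF-kB consensus. Capitals mark the matches.
Cxcl10 (chr14:15988816-15989065, plus strand): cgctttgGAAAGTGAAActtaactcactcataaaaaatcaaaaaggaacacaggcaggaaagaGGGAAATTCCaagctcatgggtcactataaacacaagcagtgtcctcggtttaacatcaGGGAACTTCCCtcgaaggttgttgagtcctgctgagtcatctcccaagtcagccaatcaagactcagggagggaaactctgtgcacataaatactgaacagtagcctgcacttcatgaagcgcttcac
Cxcl11 (chr14:15973478-15973727, plus strand): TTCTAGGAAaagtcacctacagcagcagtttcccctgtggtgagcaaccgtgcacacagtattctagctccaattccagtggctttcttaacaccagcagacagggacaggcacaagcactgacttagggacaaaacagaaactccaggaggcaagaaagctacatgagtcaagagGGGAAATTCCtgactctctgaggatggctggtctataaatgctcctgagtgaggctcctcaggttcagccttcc
The Cxcl10 window held 1 response element core, GAAAGTGAAA, beginning 243 bases before the start of the gene. It also held NF-kB matches at 187 bases and at 128 bases before the start, the second of which overlaps a match on the opposite strand beginning 127 bases before the start. The Cxcl11 window held an activated site core at its outer end, 250 bases before the start, and an NF-kB match, GGGAAATTCC, 74 bases before it. In Cxcl9 the only match was an activated site core, TTCTCTGAA, 32 bases after the start. The windows of Cxcl12 and Cx3cl1 held none of the 3 motifs. Over all 33465 promoter windows of 300 bases (250 before the start and 50 after it), 3.92% held the response element core, 8.87% the activated site core and 7.52% the NF-kB consensus. A match is a stretch of letters, not a measured binding site.

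**Figure D1:**
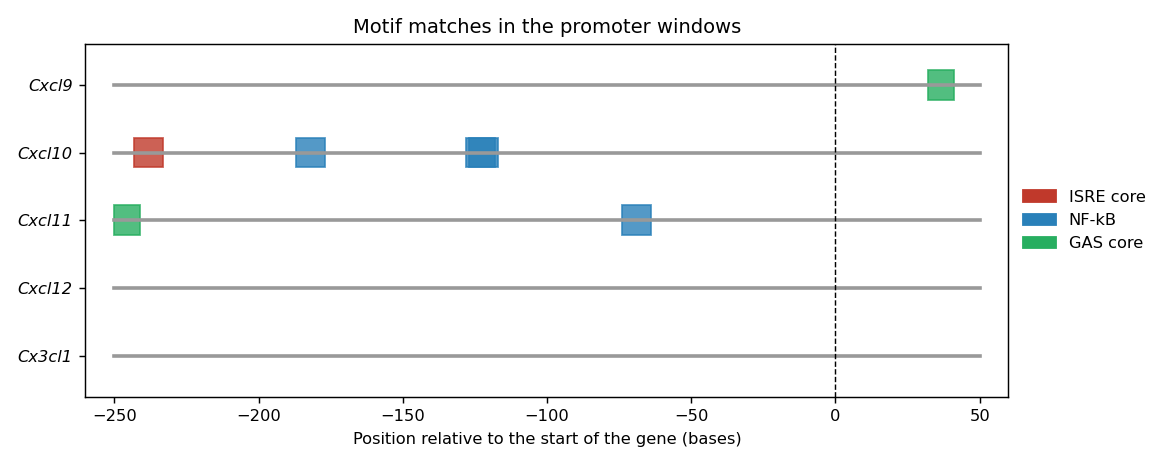
Matches to 3 motifs in the promoter windows of 5 chemokine genes, with position in bases relative to the start of the gene (dashed line) on the x axis and 1 gene per row. Cxcl10 carries the response element core and 3 overlapping or separate NF-kB matches, and Cxcl12 and Cx3cl1 carry no match.

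Cxcl10, which had the most reads of the 6 genes over all 11 libraries together, was higher in the homozygous libraries of both sets. It had 62.0, 79.3 and 68.3 normalized reads in homozygous replicates 4 to 6, against 16.4, 4.69 and 9.96 in the wild-type libraries. It had 37.5, 19.1 and 83.1 normalized reads in homozygous replicates 1 to 3, against 7.44 and 2.44 in the heterozygous libraries. Every homozygous library lay above every other library of its set, and homozygous replicate 2 was the lowest of the 6. Means were 69.9 ± 8.79 and 10.4 ± 5.87 in homozygous and wild-type libraries of set 2 (SD, n = 3 each). The log2 difference was 2.78 (SE 0.57). The pooled ratio of reads there was 6.94, with an exact 95% interval of 4.77 to 10.4 that covers counting error only. In set 1 the means were 46.5 ± 32.9 in homozygous and 4.94 ± 3.53 in heterozygous libraries (SD, n = 3 and 2). The log2 difference was 2.90 (SE 0.64). Its limma adjusted p was 0.200, which did not pass 0.05. DESeq2 gave an adjusted p of 0.009 for the same comparison, and over all alternatives the adjusted p ran from 0.009 to 0.796.

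Cxcl11 was read in every homozygous library and in no other. It had 15.2, 10.2 and 8.33 normalized reads in homozygous replicates 4 to 6, against 0 in each wild-type library. It had 5.05, 2.12 and 9.97 normalized reads in homozygous replicates 1 to 3, against 0 in both heterozygous libraries. In reads, these were 2 to 13 per homozygous library, and a count of 0 in the 5 others allows up to 3 reads, or 0.389 to 0.555 reads scaled to library depth (CPM) in a library. Against a floor of 3 reads over the whole group, the homozygous level was 11.6-fold the wild-type floor and 3.22-fold the heterozygous floor. These folds take the homozygous reads as counted. They have no interval, are not lower bounds and do not cover the spread between libraries. The fitted log2 difference was 3.57 (SE 0.56) in set 2 and 2.56 (SE 0.63) in set 1, with a limma adjusted p of 0.226 in set 1. Reads in all 6 homozygous libraries with 0 in the other 5 were seen for 2 of 20956 features (0.00954%), the other being Vom1r90, a vomeronasal receptor gene named after its values were seen.

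Cxcl9 was sparse and its groups overlapped. It had 17.5, 1.13 and 10.0 normalized reads in homozygous replicates 4 to 6, against 0, 0 and 1.66 in the wild-type libraries. It had 0, 6.36 and 4.15 normalized reads in homozygous replicates 1 to 3, against 2.48 and 0 in the heterozygous libraries. Homozygous replicates 1 and 5 were at or near the level of the other genotypes, and homozygous replicate 4 was highest. The pooled ratio in set 2 was 15.2, with an exact interval of 3.83 to 131 that covers counting error only. It pools 28 against 2 reads, and homozygous replicates 4 and 6 held 15 and 12 of the 28. The log2 difference in set 2 was 2.45 (SE 0.94). In set 1 it was 0.85 (SE 1.06), with a limma adjusted p of 0.781.

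The Cxcr3 ligands together were mostly Cxcl10 reads in every genotype. In the 6 homozygous libraries they had 467 reads, of which Cxcl10 made 80.3% (exact 95% interval 76.4 to 83.8%). In the heterozygous and wild-type libraries together they had 44 reads, of which Cxcl10 made 90.9% (78.3 to 97.5%). These intervals overlap, but they pool reads and cover counting error only, not the spread between libraries. By library, the Cxcl10 share ran from 65.4% (replicate 4) to 88.1% (replicate 1) in the homozygous libraries. In the heterozygous and wild-type libraries it ran from 75.0% to 100%, over 2 to 15 reads each, so the shares of single libraries also overlapped. Cxcl11 held 53 of the 467 homozygous reads and 0 of the 44 others.

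Ccl2, the monocyte chemokine, was higher in homozygous libraries of set 2 and little different in set 1. It had 5.85, 11.3 and 9.16 normalized reads in homozygous replicates 4 to 6, against 1.09, 3.75 and 0 in the wild-type libraries. It had 3.61, 3.18 and 4.15 normalized reads in homozygous replicates 1 to 3, against 2.48 and 2.44 in the heterozygous libraries. The groups did not overlap in either set, but in set 1 the nearest values were 3.18 and 2.48. The log2 difference was 2.14 (SE 0.60) in set 2, with a pooled ratio of 5.63 (exact interval 2.13 to 18.8, counting error only). In set 1 the log2 difference was 0.42 (SE 0.67), with a limma adjusted p of 0.834.

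Ccl5, a chemokine of T cells and monocytes, did not separate the genotypes. It had 7.01, 4.53 and 9.16 normalized reads in homozygous replicates 4 to 6, against 5.47, 2.82 and 1.66 in the wild-type libraries. It had 6.49, 14.8 and 11.6 normalized reads in homozygous replicates 1 to 3, against 2.48 and 30.5 in the heterozygous libraries. Heterozygous replicate 2 was the highest of all 11 libraries, and heterozygous replicate 1 among the lowest. The log2 difference was 0.93 (SE 0.73) in set 2 and 0.13 (SE 0.81) in set 1, where the limma adjusted p was 0.966 and leaving out heterozygous replicate 1 turned the difference to -1.46.

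Cx3cl1, the ligand of microglial Cx3cr1, was the lowest per length in the homozygous libraries. It had 3.51, 6.80 and 0.833 normalized reads in homozygous replicates 4 to 6, against 0, 2.82 and 1.66 in the wild-type libraries. It had 2.88, 0 and 4.15 normalized reads in homozygous replicates 1 to 3, against 2.48 and 2.44 in the heterozygous libraries. The groups overlapped in both sets, with log2 differences of 0.89 (SE 0.78) in set 2 and -0.35 (SE 0.87) in set 1, the second with a limma adjusted p of 0.899.

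**Figure D2:**
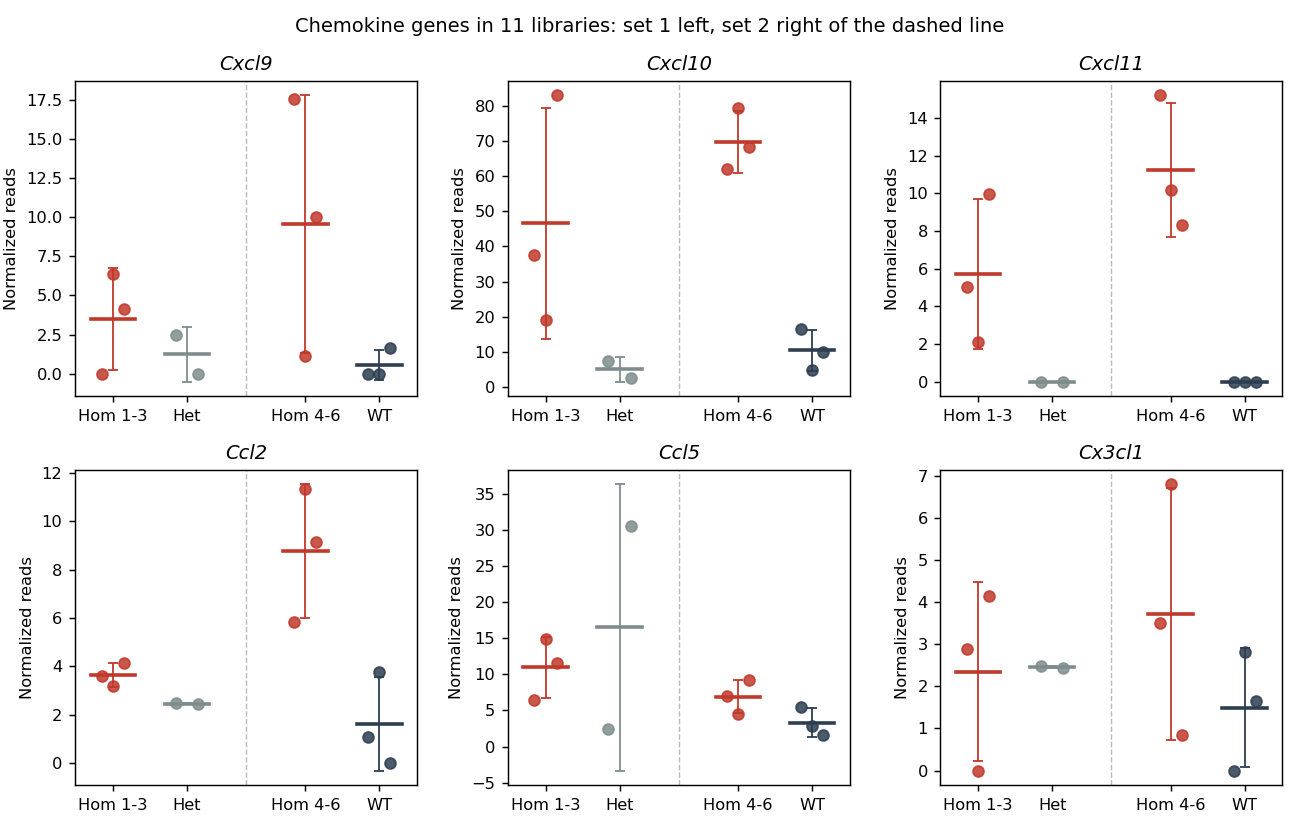
Normalized reads (y axis) of 6 chemokine genes in homozygous, heterozygous and wild-type libraries, with set 1 left and set 2 right of the dashed line; points are libraries, thick bars means and thin bars SD. Cxcl10 and Cxcl11 are higher in every homozygous library than in the other libraries of its set, while Ccl5 and Cx3cl1 overlap.

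Between homozygous and other libraries, groups that did not overlap were common: 6.14% of all features were higher in every homozygous library of set 2, and 15.2% in set 1. Of the 6 genes, Cxcl10, Cxcl11 and Ccl2 were so in each set, and 0.969% of features were so in both. When all libraries were scaled together, all 6 homozygous libraries lay above all 5 others for 0.282% of features, Cxcl10 and Cxcl11 among them. The lowest homozygous library had 2.88 CPM of Cxcl10 and the highest other library 2.55. In the test over all features, 8 of 20956 (0.0382%) differed between homozygous and wild-type libraries by limma at an adjusted p under 0.05, and none between homozygous and heterozygous libraries (0.0%), where 2539 (12.1%) had an unadjusted p under 0.05 and DESeq2 called 205. None of the 6 genes passed the limma test in set 1.

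No set holds both heterozygous and wild-type libraries, so their difference runs through both sets and is given as values. Between them limma called none of 20956 features (0.0%), with 1669 (7.96%) at an unadjusted p under 0.05 and 26 called by DESeq2. Scaled together, Cxcl10 was at 0.758 ± 0.541 CPM in heterozygous and 1.61 ± 0.916 CPM in wild-type libraries (SD, n = 2 and 3), and the gap was within the spread. Cxcl11 was at 0 in both. Homozygous libraries 4 to 6 had 10.8 ± 1.34 CPM of Cxcl10 and homozygous libraries 1 to 3 had 7.15 ± 5.10, which overlapped. For Cxcl10 the order of means was homozygous 4 to 6, homozygous 1 to 3, wild type and heterozygous, and only the step between the second and the third exceeded both SDs. For Cxcl11 and Ccl2 the homozygous libraries 4 to 6 exceeded homozygous libraries 1 to 3 beyond both SDs, with 1.74 ± 0.540 against 0.878 ± 0.614 CPM for Cxcl11.

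Per length and depth (RPKM), the levels in the 6 homozygous libraries were ordered as follows. Cxcl10 was highest with 7.93 ± 3.43 RPKM, then Ccl5 with 2.52 ± 1.04, and Ccl2 with 1.15 ± 0.621. Cxcl11 had 0.842 ± 0.450, Cxcl9 0.672 ± 0.670 and Cx3cl1 0.149 ± 0.120 RPKM (SD, n = 6). The step from Cxcl10 to Ccl5 exceeded both SDs over all 6. In homozygous libraries 1 to 3 alone Cxcl10 had 6.31 ± 4.49 RPKM (SD, n = 3), and the step was within that SD. Homozygous replicate 2 had more Ccl5 than Cxcl10, at 4.11 against 2.54 RPKM. By set, homozygous libraries 1 to 3 had 3.08 ± 1.15 RPKM of Ccl5 and 0.669 ± 0.0959 of Ccl2, while homozygous libraries 4 to 6 had 1.97 ± 0.678 and 1.63 ± 0.511 (SD, n = 3 each), within the spread, and Ccl2 was the higher in replicate 5. Over all 6, Ccl2, Cxcl11 and Cxcl9 lay within each other's SD.

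**Figure D3:**
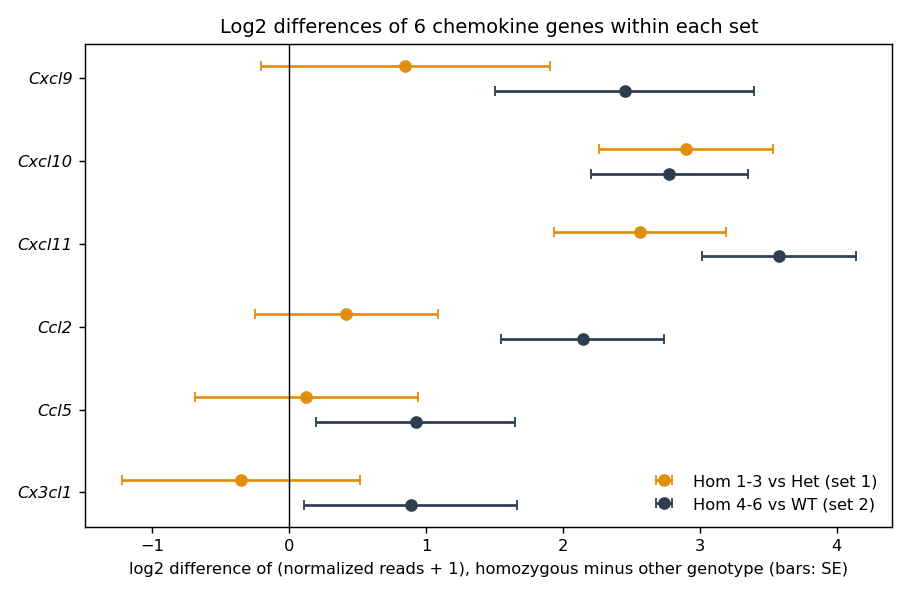
Log2 differences of normalized reads plus 1 (x axis, homozygous minus the other genotype, bars SE) for 6 chemokine genes, against heterozygous libraries in set 1 (orange) and wild-type libraries in set 2 (dark). Cxcl10 is similar in both, at 2.90 and 2.78, and Ccl2 is at 0.42 and 2.14.

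The labels give no sex, and the Y-linked gene Eif2s3y was unevenly spread over the groups: homozygous replicates 2, 3, 4 and 6 and heterozygous replicate 2 had more than 10 reads of it and the other libraries at most 1. Within libraries lacking it, Cxcl10 had 79.3 normalized reads in homozygous replicate 5 against 4.69 to 16.4 in the wild-type libraries, and 37.5 in homozygous replicate 1 against 7.44 in heterozygous replicate 1. Within libraries carrying it in set 1, Cxcl10 had 19.1 to 83.1 in the homozygous libraries against 2.44 in the heterozygous library. Cxcl11 had 10.2 in homozygous replicate 5 against 0 in the wild-type libraries. Cxcl9 did not follow this pattern among libraries lacking Eif2s3y. There it had 1.13 normalized reads in homozygous replicate 5 against 0 to 1.66 in the wild-type libraries. It had 0 in homozygous replicate 1 against 2.48 in heterozygous replicate 1. Among libraries carrying Eif2s3y in set 1, Cxcl9 had 4.15 to 6.36 in the homozygous libraries against 0 in the heterozygous library. The homozygous libraries of set 2 that carry it had 10.0 to 17.5, with no wild-type library to set beside them. With Eif2s3y as a covariate, the set 2 log2 difference was 1.48 for Cxcl9 and -0.045 for Ccl5. For Cxcl10 it was 3.06 in set 2.

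Beside these genes, the astrocyte gene Gfap averaged 24461 ± 4641 normalized reads in homozygous libraries 4 to 6 and 11192 ± 5385 in wild-type libraries (SD, n = 3 each), and its limma adjusted p was 0.484. In set 1 it averaged 21988 ± 3578 in homozygous and 13972 ± 2993 in heterozygous libraries. The astrocyte markers as a list did not move with it. Of 7, 3 had positive log2 differences in each set, Gfap among them, and 4 negative. Medians were -0.14 in set 2 and -0.19 in set 1. Slc1a3, an astrocyte glutamate transporter, was at -0.18 and -0.32, and Aldh1l1 at -0.85 and -0.84. The summed T and NK cell markers (12 of 15) were 25.7 to 32.4 CPM in homozygous and 18.4 to 25.2 CPM in wild-type libraries of set 2. In set 1 they were 19.7 to 22.1 CPM in homozygous and 17.7 to 22.9 CPM in heterozygous libraries. Cd4 had 51 to 179 reads in a library and Lck 21 to 82, while the others except Cd3e had at most 12. Of the 9 tested, 5 had positive and 4 negative log2 differences in each set. Of the defining T cell genes, Cd3d had 0 to 2 reads and was at 0 in 6 of 11 libraries. Cd3e had 1 to 51 reads, the highest in wild-type replicate 3, and averaged 5.40 ± 4.19 normalized reads in homozygous and 18.5 ± 20.7 in wild-type libraries of set 2 (SD, n = 3 each). The microglial markers (7 of 13) summed to 440 to 671 CPM in homozygous and 869 to 967 CPM in heterozygous libraries of set 1, while endothelial markers (6 of 12) summed to 764 to 1166 CPM in the homozygous and 1921 to 3829 CPM in the heterozygous libraries. In set 2 both sums overlapped, with microglial markers at 468 to 665 CPM in homozygous and 341 to 717 CPM in wild-type libraries. Endothelial markers there summed to 741 to 1220 CPM in homozygous and 953 to 1525 CPM in wild-type libraries. The median log2 difference of the microglial markers was 0.37 in set 2 and -0.69 in set 1. Neuronal markers (6 of 7) summed to 2990 to 4412 CPM in homozygous and 2181 to 2280 CPM in heterozygous libraries of set 1. In set 2 their sums overlapped, at 3100 to 5697 CPM in homozygous and 2285 to 4039 CPM in wild-type libraries. Of the 6, 4 had positive and 2 negative log2 differences in set 1. Snap25, a synaptic gene, was at 2.12 with no overlap in set 1 and at -0.41 in set 2. In set 1 Map2 was at -0.53, and Rbfox3, with 0 to 9 reads, at -1.10 without overlap. The regional markers Neurod1 and Calb1 were higher in homozygous libraries of set 1. Neurod1 was at 220 ± 84.1 normalized reads in homozygous and 50.5 ± 21.4 in heterozygous libraries (SD, n = 3 and 2), without overlap. Calb1 had a log2 difference of 1.15, with overlap. On the same strand another listed feature overlaps each of Aldh1l1, Snap25, Map2, Rbfox3 and Neurod1, and what this did to their reads was not tested. The part of these markers in the chemokine values was not tested. In bulk tissue, fewer cells of a type and less RNA per cell cannot be told apart.

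Other genes of the pathway came from 4 lists, of which no gene passed the limma test in either set. Of 29 other chemokine ligands, 20 were tested: 13 had positive and 7 negative log2 differences in set 2 (median 0.24), and 11 and 9 in set 1 (median 0.12). Over all features 49.9% and 52.7% were positive, with medians of -0.0011 and 0.042. Cxcl13, the B cell chemokine, came nearest to the members. It had 23.4, 29.5 and 24.99 normalized reads in homozygous replicates 4 to 6, against 6.57, 7.51 and 0.83 in the wild-type libraries. It had 21.6, 6.36 and 29.9 normalized reads in homozygous replicates 1 to 3, against 0 and 2.44 in the heterozygous libraries. Both sets had no overlap, with log2 differences of 2.45 (SE 0.72, limma adjusted p 0.574) in set 2 and 3.22 (SE 0.81, limma adjusted p 0.240) in set 1. Cxcl1, a neutrophil chemokine, had 2 to 14 reads in homozygous replicates 1, 3, 5 and 6 and 0 in homozygous replicates 2 and 4 and in the other 5 libraries. Cxcl14 was at 2780 ± 869 normalized reads in homozygous and 5823 ± 2336 in heterozygous libraries of set 1 (limma adjusted p 0.289), but 3069 ± 757 in homozygous and 3048 ± 481 in wild-type libraries of set 2 (SD, n = 3, 2, 3 and 3).

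Of 23 chemokine receptors, 13 were tested. In set 2, 8 had positive and 5 negative log2 differences (median 0.37), and in set 1, 5 and 8 (median -0.27). Cxcr3, the receptor of Cxcl9, Cxcl10 and Cxcl11, had 1 to 5 reads per library, averaging 4.17 ± 1.30 normalized reads in homozygous and 2.69 ± 2.43 in wild-type libraries of set 2 (SD, n = 3 each). In set 1 it averaged 2.85 ± 0.345 in homozygous and 4.91 ± 1.69 in heterozygous libraries (SD, n = 3 and 2), without overlap and with a limma adjusted p of 0.732. Cxcr4, a receptor of Cxcl12, averaged 64.4 ± 8.89 in homozygous and 54.0 ± 28.7 in wild-type libraries. Ackr3, the scavenging receptor of Cxcl12 and Cxcl11, averaged 163 ± 20.5 and 197 ± 57.7. No feature carries the name of Ccr2 or Cx3cr1, so the receptors of Ccl2 and Cx3cl1 were not analysed here.

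Of 36 inducers and signalling genes, 22 were tested, with 14 positive and 8 negative differences in set 2 (median 0.09) and 5 and 17 in set 1 (median -0.27). Ifih1, an RNA sensor, averaged 161 ± 30.3 normalized reads in homozygous and 87.6 ± 36.0 in wild-type libraries, and in set 1 126 ± 45.6 in homozygous and 136 ± 47.3 in heterozygous libraries. Ifngr1, the interferon-gamma receptor, averaged 1366 ± 297 in homozygous and 2275 ± 346 in heterozygous libraries (limma adjusted p 0.335), and 1220 ± 114 in homozygous and 1214 ± 424 in wild-type libraries of set 2. Of 11 ligand processing genes, 7 were tested, with 2 positive and 5 negative in set 2 (median -0.12) and 4 and 3 in set 1. Among them Adam17, a sheddase of Cx3cl1, averaged 363 ± 40.8 normalized reads in homozygous and 453 ± 52.5 in wild-type libraries. In set 1 it averaged 419 ± 12.9 in homozygous and 583 ± 120 in heterozygous libraries, with a limma adjusted p of 0.405.

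**Figure D4:**
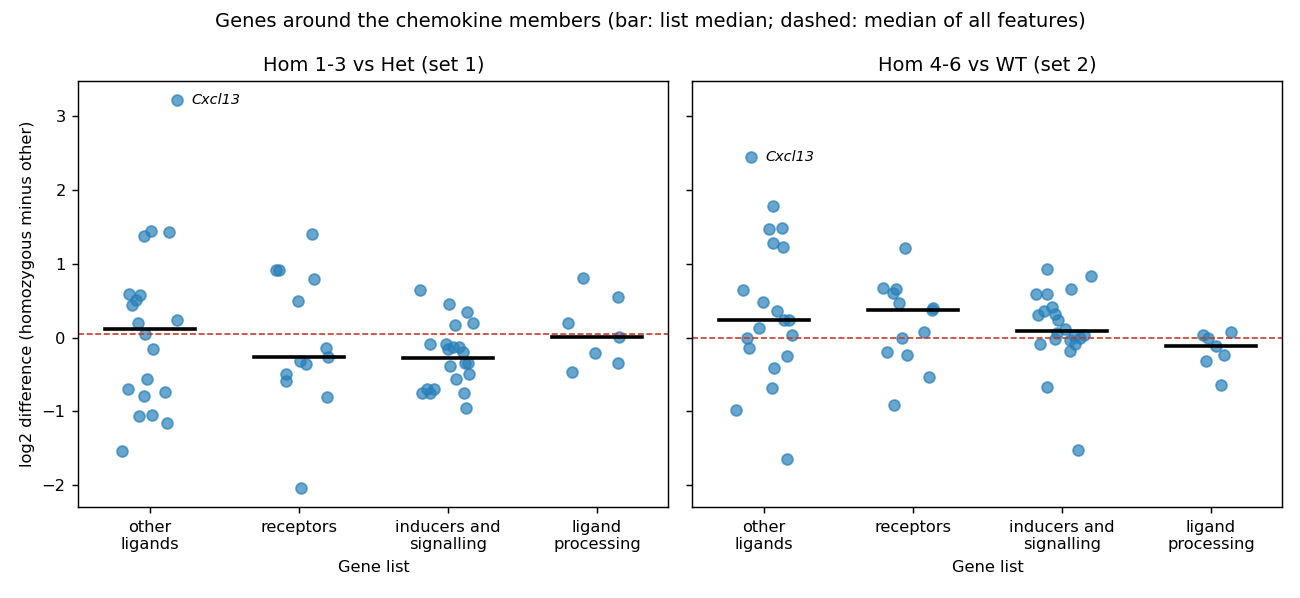
Log2 differences (y axis, homozygous minus the other genotype) of genes in 4 lists, against heterozygous libraries (left) and wild-type libraries (right); points are genes, bars list medians and the dashed line the median of all features. Cxcl13 lies highest in both panels, at 3.22 and 2.45.

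By their level across the 11 libraries on log2 CPM, the named genes most like Cxcl10 among 5936 ranked were Dnajb3 (r = 0.908), Oas1g (0.891), Ptx3 (0.885), RT1-Db1 (0.883), RT1-Bb (0.880), Serf1 (0.872), Lgals3bp (0.869) and Ccdc115 (0.869). Oas1g encodes an interferon-induced RNA sensor, Ptx3 a secreted pentraxin, RT1-Db1 and RT1-Bb class II histocompatibility chains, and Lgals3bp a secreted galectin ligand. Oas1g had 1.34 to 5.24 CPM in homozygous libraries and at most 1.02 CPM in the others, and RT1-Db1 had 21.3 to 68.3 and 5.21 to 23.8. Within the members, Cxcl11 had r = 0.930 with Cxcl10, Ccl2 0.647, Cxcl9 0.556, Cx3cl1 0.280 and Ccl5 0.033. These values run over 11 libraries that share depth and genotype groups and are a description. The RT1 genes have near copies in the genome, so their reads may be shared between loci. For Cx3cl1 the most alike were Med30 (0.798), Ttc22 (0.779) and Crb2 (0.776), over few reads.

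**Figure D5:**
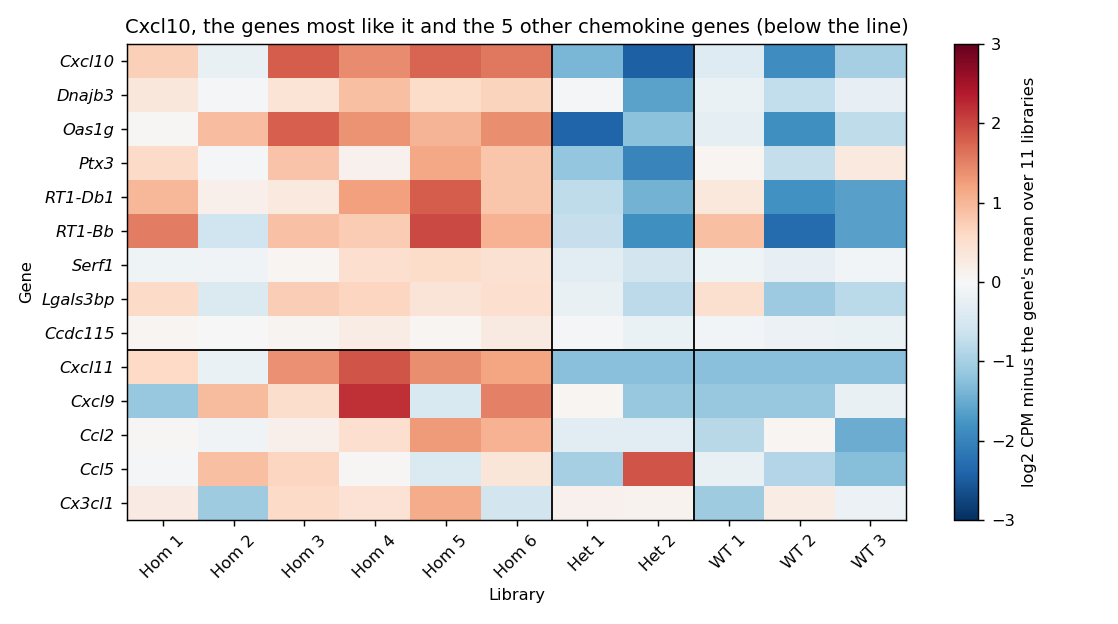
Log2 CPM minus the mean over 11 libraries (colour scale) for Cxcl10, the 8 genes most like it and, below the line, the 5 other chemokine genes (y axis), by library (x axis). Cxcl10 is low in the heterozygous and wild-type libraries and Ccl5 is highest in heterozygous replicate 2.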

How the data were processed

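The samples are 11 RNA sequencing libraries; the groups come from the titles and genotype labels. The submitters' processing notes name HISAT2 2.0.4, FastQC and build rn6; the read counter is not given in the sources used here. Each deposited value is a read signal: the authors divided the reads of each feature by 1 size factor per library, in 2 sets listing 24436 and 24792 features. At a tolerance of 0.001, 100% of values were whole multiples of 1 read, so reads were recovered.

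The fit was limma 3.58.1 (R 4.3.3) on log2(value + 1), with genotype and set as terms, over 20956 features that both sets list and whose mean reached 1; log2 differences are on that scale, which understates changes of low genes. p-values were adjusted by Benjamini-Hochberg over all of them. edgeR 4.0.16 and DESeq2 1.42.0 were run on the reads as alternatives. CPM were scaled over all libraries by TMM with a prior count of 2 on the log scale. Unnamed features took 25.1 to 31.5% of reads. The fit was tested on simulated data. Named genes were the 6 members, Ercc6, the receptors of the members, up to 4 genes of each list with the smallest p and the 8 or 3 features most like Cxcl10 or Cx3cl1 with a mean of at least 10; further genes were chosen after their values were seen, and some genes under these rules are not reported here. The members and lists were chosen with earlier results of these data known.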

Additional observations from a re-analysis of the deposited data

Results flagged for a closer look

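In 37 genes checked over the 6 homozygous libraries, 5 had a highest or lowest library whose gap to the nearest other passed Dixon's 95% critical value, and chance flags about 1 in 20 such groups. None was one of the 6 chemokine genes. Ccl3, a macrophage chemokine, was highest in homozygous replicate 3 at 1.54 CPM. Cxcl1 was highest in homozygous replicate 6 at 1.83 CPM. Cxcl13 was lowest in homozygous replicate 2 at 0.959 CPM. Cxcr3 was highest in homozygous replicate 5 at 0.873 CPM. Mmp9, a protease that cuts chemokines, was highest in homozygous replicate 2 at 32.3 CPM.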

How the results depend on the processing

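Read depth limits Cxcl9, Cxcl11, Ccl2, Ccl5 and Cx3cl1, which had at most 25 reads in a library. Of 23 alternatives, DESeq2 called Cxcl10 in set 1, and no other alternative moved a chemokine gene across the threshold there. DESeq2 gave no adjusted p in set 1 for Cxcl9, Cxcl11, Ccl2, Ccl5 and Cx3cl1, so it could not call them. Features called between homozygous and wild type were 8, and 38 by DESeq2, 5 by edgeR with either scaling, 4 by limma-voom, 3 from the libraries of the set alone, 5 at pseudocount 4, 2 with Eif2s3y as a covariate and 2 to 11 leaving out 1 library (3 without homozygous replicate 4, 2 without wild-type replicate 3). Between homozygous and heterozygous they were 0, and 205 by DESeq2, 5 with Eif2s3y, 17 with no set term and 0 to 3 leaving out 1 library (3 without homozygous replicate 4, 2 without homozygous replicate 2 or wild-type replicate 2, 1 without homozygous replicate 6 or heterozygous replicate 1). Between heterozygous and wild type they were 0, and 26 by DESeq2, 2 with no set term and 0 to 7 leaving out 1 library (7 without wild-type replicate 2, 1 without homozygous replicate 5 or 6). With the replicate number as a block, they were 4 for homozygous against wild type and 2 for homozygous against heterozygous; same-numbered homozygous and wild-type libraries correlated at -0.15 to 0.16, homozygous and heterozygous ones at 0.11 and 0.12, and heterozygous and wild-type ones at 0.15 and 0.20; 2 of 6 homozygous and wild-type libraries correlated best with their own number. The labels tie the numbers to no animal, litter or day, so they were not taken as pairs. The log2 difference of Ccl5 in set 2 turned to -0.045 with Eif2s3y as a covariate. In set 1 it turned to -0.61 with DESeq2, -0.61 and -0.61 with edgeR by TMM and by median-of-ratios, -0.12 with Eif2s3y, -0.16 with no set term and -0.038 at pseudocount 4, and ran from -1.46 to 1.72 leaving out 1 library, below 0 without heterozygous replicate 1 or homozygous replicate 2. Leaving out 1 library, Cxcl9 in set 1 ran from -0.050 (without heterozygous replicate 2) to 1.75 and Cx3cl1 from -0.81 to 0.37 (without homozygous replicate 2). The causes were not tested. With a minimum mean of 10, only Cxcl10 of the 6 genes stayed in the fit. Leaving out a heterozygous library leaves 1, assumed to vary like the others.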
